A study of Rattus norvegicus with 12 samples.

Results

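The genes described here are the HOX, PBX and TBX genes, in cultured cells of retinal origin from the rat. HOX genes mark and set position along the body axis, and the roles of PBX and TBX genes are given below. All were taken by symbol from the count tables: 25 HOX genes, 4 PBX genes and 12 TBX genes, 41 of 17315 genes in all. RefSeq lists 39 rat HOX symbols, of which these 25 are analysed here. RNA was sequenced in 12 libraries of Müller cells, the main glia of the retina. The 5 SIRMu-1 libraries came from cultures of 1 spontaneously immortalized Müller cell line, derived from Sprague-Dawley pups of postnatal day 2 to 4, at passages 6 to 20. Of these, replicates 3 and 5 were grown with 87 mg/L gentamicin (an antibiotic) and 2.2 mg/L amphotericin B (an antifungal), and replicates 1, 2 and 4 without either. The 3 rMC-1 libraries came from cultures of 1 line made from adult Sprague-Dawley rats, at passages 23 to 26, without these drugs. As background, rMC-1 is known to carry the large T antigen of SV40, a viral protein that keeps cells dividing. The 4 Primary MC libraries came from primary Müller cultures of Sprague-Dawley pups of postnatal day 2 to 4, at passages 3 to 4, all with both drugs. All cultures had medium with 25 mM glucose and 2 mM glutamine, with 20% fetal bovine serum for SIRMu-1 and Primary MC and 10% for rMC-1. Immortalization and passage differ together between SIRMu-1 and Primary MC, and the drugs differ as well for SIRMu-1 replicates 1, 2 and 4. For rMC-1, donor age, serum and drugs all differ from Primary MC too, so these cannot be told apart. Each immortal group is 1 line, and the labels do not say which libraries came from separate cultures, so p-values measure only the spread between these libraries, which may be technical in part.

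HOX genes encode homeodomain transcription factors in 4 chromosomal clusters, and their order along a cluster matches the order of their expression from hindbrain to tail. The retina arises from the forebrain, in front of the HOX-expressing part of the embryo, and its own position is set by other genes, among them Tbx2, Tbx3 and Tbx5 on the dorsal side. PBX proteins are homeodomain partners with which HOX and MEIS proteins bind DNA. TBX genes encode T-box transcription factors that act in the formation of heart, limbs, pharynx and connective tissue as well as the eye.

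Gene counts came to between 26349346 and 36730443 per SIRMu-1 library, 27351014 and 38125630 per rMC-1 library, and 22582345 and 29812705 per Primary MC library. Levels are given in CPM, each gene's count scaled to its library's total and corrected by the trimmed mean of M values (TMM), and 1 read was worth between 0.0206 and 0.0447 CPM. Levels of different genes are not compared, because they were not corrected for gene length. Of the 10 Müller glia markers, Aqp4 and Car2 were at 0 in all libraries of both lines, and Kcnj10 and Sox2 were also at 0 in SIRMu-1. Aqp4 and Kcnj10 were near 0 in Primary MC as well, with 2 and 13 counts over its libraries, and Kcnj10 had 9 counts over rMC-1. Car2 had 725 counts over Primary MC. Summed Müller marker levels were 3001 to 4147 CPM in SIRMu-1, 1462 to 1546 CPM in rMC-1 and 5712 to 7552 CPM in Primary MC. Vim, a filament gene of many cell types, made up most of these sums, with means of 3540 CPM in SIRMu-1, 1367 CPM in rMC-1 and 6207 CPM in Primary MC. The order of the groups varied among the other markers. Rlbp1 averaged 0.156 CPM in SIRMu-1, 0.910 CPM in rMC-1 and 0.0654 CPM in Primary MC. Sox2 averaged 0 in SIRMu-1, 14.9 CPM in rMC-1 and 2.49 CPM in Primary MC, and Slc1a3 was also highest in rMC-1 by mean. Sox9 averaged 71.6 CPM in SIRMu-1, 0.0358 CPM in rMC-1 and 52.2 CPM in Primary MC. Apoe and Glul were highest in Primary MC, with means of 224 and 143 CPM. Of 8 Müller markers tested, 0 rose and 5 fell in SIRMu-1 against Primary MC, and 1 rose and 5 fell in rMC-1 against Primary MC. Over all genes tested, 21.7% rose and 24.4% fell in the first comparison, and 31.9% rose and 38.9% fell in the second. In total 70.8% were called in the second, so the number of Müller markers called in rMC-1 was near the share of all genes. Summed levels of 10 fibroblast markers were 73040 to 98980 CPM in SIRMu-1, 4744 to 6657 CPM in rMC-1 and 73410 to 195700 CPM in Primary MC. Col1a1 and Fn1 carried most of the sums in SIRMu-1. Thy1 averaged 0.0287 CPM in SIRMu-1, 0.228 CPM in rMC-1 and 566 CPM in Primary MC, and Dcn averaged 4.54 CPM in SIRMu-1, 0.782 CPM in rMC-1 and 681 CPM in Primary MC. Of the 10, 1 rose and 4 fell in SIRMu-1 and 0 rose and 10 fell in rMC-1, both against Primary MC. These stand beside the same shares of all genes, and the number called in SIRMu-1 was near the 46.1% of all genes called there.

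Promoter sequences are shown for 4 genes whose levels separated the groups, to give the sequence around their starts. Each window holds a transcript start near its 3' end and is taken from RefSeq on assembly GRCr8, which holds a promoter for 24 of the 41 genes. They are Hoxa2 at chr4:82595643-82595942 on the minus strand, Hoxc4 at chr7:136048809-136049108 on the plus strand, the first of 2 starts of Tbx1 at chr11:95913360-95913659 on the plus strand, and Tbx18 at chr8:97559916-97560215 on the minus strand. Capitals mark matches to a PBX-HOX motif (TGATNNAT), a MEIS motif (TGACAG) or a CDX motif (TTTATNG), searched on both strands.
Hoxa2: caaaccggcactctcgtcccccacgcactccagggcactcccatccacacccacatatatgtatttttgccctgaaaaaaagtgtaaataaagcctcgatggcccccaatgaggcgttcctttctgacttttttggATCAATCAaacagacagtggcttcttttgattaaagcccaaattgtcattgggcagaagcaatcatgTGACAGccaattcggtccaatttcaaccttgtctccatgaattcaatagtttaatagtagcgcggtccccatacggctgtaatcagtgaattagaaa
Hoxc4: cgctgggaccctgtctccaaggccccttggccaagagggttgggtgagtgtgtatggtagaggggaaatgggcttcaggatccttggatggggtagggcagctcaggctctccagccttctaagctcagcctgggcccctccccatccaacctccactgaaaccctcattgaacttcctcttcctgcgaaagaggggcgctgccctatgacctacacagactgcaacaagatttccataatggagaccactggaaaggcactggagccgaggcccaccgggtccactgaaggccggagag
Tbx1: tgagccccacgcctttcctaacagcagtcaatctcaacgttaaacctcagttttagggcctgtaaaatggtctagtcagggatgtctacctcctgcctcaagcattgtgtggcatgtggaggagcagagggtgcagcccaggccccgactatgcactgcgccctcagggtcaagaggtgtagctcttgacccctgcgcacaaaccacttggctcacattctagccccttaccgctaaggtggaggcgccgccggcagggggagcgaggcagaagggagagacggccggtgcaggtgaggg
Tbx18: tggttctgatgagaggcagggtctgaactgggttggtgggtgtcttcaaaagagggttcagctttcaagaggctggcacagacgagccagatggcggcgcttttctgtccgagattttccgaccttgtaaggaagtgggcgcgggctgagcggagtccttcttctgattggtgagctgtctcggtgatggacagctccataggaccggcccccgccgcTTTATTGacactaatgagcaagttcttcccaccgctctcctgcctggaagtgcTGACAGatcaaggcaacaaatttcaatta

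Hoxa2 held 1 PBX-HOX match and 1 MEIS match, Tbx18 held 1 MEIS match and 1 CDX match, and Hoxc4 and Tbx1 held no match in these windows. Over all 33469 promoters of the same length, 9.1% held the PBX-HOX motif, 19% the MEIS motif, 11.3% the CDX motif and 1.1% the T-box motif AGGTGTGA. Among the 24 genes with a promoter, 2 held the PBX-HOX motif (Hoxa2 and Tbx6), 5 the MEIS motif (Hoxa2, Tbx4, Tbx5, Tbx18 and Tbx21), 4 the CDX motif (Hoxa9, Tbx5, Tbx6 and Tbx18) and 0 the T-box motif. CpG dinucleotides numbered 9 in Hoxa2, 6 in Hoxc4, 12 in Tbx1 and 13 in Tbx18, against a median of 7.0 over all promoters.

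Reads from the HOX clusters were found almost entirely in rMC-1. Summed over the 25 HOX genes, levels were 0 to 0.599 CPM in SIRMu-1 libraries, 68.9 to 72.5 CPM in rMC-1 libraries and 0.187 to 4.25 CPM in Primary MC libraries. No HOX gene reached 10 counts in a SIRMu-1 library. In rMC-1, 12, 13 and 9 HOX genes did so in replicates 1 to 3, and in Primary MC 2, 0, 2 and 1 HOX genes did so in replicates 1 to 4. In these bulk cultures, fewer cells with a transcript and less of it per cell cannot be told apart. Over all 41 genes, 26 had 10 or more counts in at least 1 library, 9 had 1 to 9 at most, and Hoxa6, Hoxa11, Hoxd1, Hoxd3, Hoxd12 and Tbx20 were at 0 in every library.

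**Figure D1:**
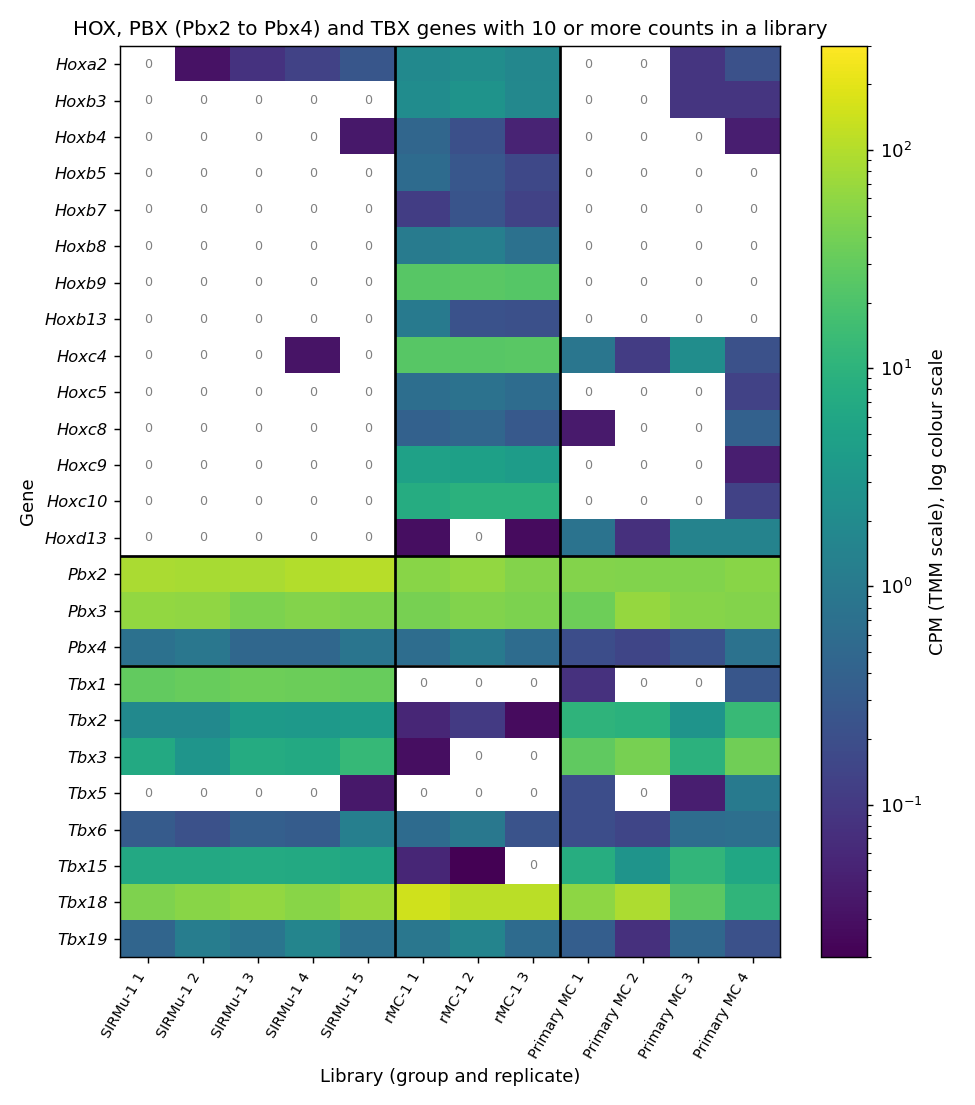
Levels (CPM on the TMM scale, log colour scale) of 25 of the genes with 10 or more counts in at least 1 library; each column is a library, SIRMu-1 left, rMC-1 in the middle and Primary MC right, and white cells with a 0 had no reads. HOX genes fill the 3 rMC-1 columns, while Tbx1, Tbx2, Tbx3 and Tbx15 are at or near 0 there.

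The test was edgeR's two-sided quasi-likelihood test over 11321 genes, with p-values adjusted by the Benjamini-Hochberg method and a gene called at an adjusted p under 0.05. Of the 41 genes, 21 had enough counts to be tested (10 HOX, 4 PBX and 7 TBX). In SIRMu-1 against Primary MC, 7 of the 21 were called, 3 higher and 4 lower, where 46.1% of all genes tested were called (21.7% higher and 24.4% lower). In rMC-1 against Primary MC, 16 were called, 10 higher and 6 lower, where 70.8% of all genes were called (31.9% higher and 38.9% lower). In SIRMu-1 against rMC-1, 15 were called, 6 higher and 9 lower, where 63.2% of all genes were called (32.7% higher and 30.5% lower). Most of the HOX genes tested passed the filter on low counts only through rMC-1, and so had to differ between groups: these counts are given as a description. Other genes also passed the filter only through a single group, so their p-values describe these libraries and are no separate support. Among them are Tbx1 (SIRMu-1), Cdx2 and Gata4 (rMC-1), and Hoxd13, Pknox2 and Pitx1 (Primary MC). The median log2 fold change over all genes was -0.02, -0.15 and 0.03 in the 3 comparisons. Scaling by library totals alone moved it to 0.32 for rMC-1 against Primary MC and to -0.40 for SIRMu-1 against rMC-1, and moved the share of higher genes among those called to 61.9%, against 45.1%, and to 30.8%, against 51.7%.

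The HOXB and HOXC clusters carried the reads in rMC-1. Hoxb9, a HOX gene of the trunk, had 0 counts in all 5 SIRMu-1 libraries, 851, 1245 and 915 counts in rMC-1 and 0 in all 4 Primary MC libraries. All rMC-1 libraries stood far above all others. Taking 3 counts per library as the most that a library at 0 allows, Hoxb9 was at least 200.4-fold higher in rMC-1 than in Primary MC (edgeR adjusted p = 1.21e-05) and at least 233.1-fold lower in SIRMu-1 than in rMC-1 (adjusted p = 1.2e-05). Its rMC-1 level was 24.7 ± 0.86 CPM (SD, n = 3).

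Hoxc4, the first gene of the HOXC cluster, had 0, 0, 0, 1 and 0 counts in SIRMu-1, 871, 1187 and 975 in rMC-1, and 22, 3, 49 and 5 in Primary MC. The 3 groups did not overlap, and the Primary MC libraries were spread over a range of 3 to 49 counts. Its log2 fold change in rMC-1 against Primary MC was 4.89 ± 0.73 (SE, adjusted p = 9.95e-05), or 5.95 without Primary MC replicate 3. In SIRMu-1 it was 115-fold lower than in Primary MC by pooled ratio (95% counting interval 20.02 to 4593, adjusted p = 0.000796), or 56.7-fold without Primary MC replicate 3, and at least 7.51-fold without SIRMu-1 replicate 4, which held the single read. It was 3521-fold lower in SIRMu-1 than in rMC-1 (631.5 to 139100, adjusted p = 3.42e-06), or at least 230.3-fold without SIRMu-1 replicate 4. In the annotation Hoxc6, which is not analysed here, overlaps Hoxc4 and Hoxc5, so the assignment of their reads is uncertain.

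Hoxc10, expressed in the lumbar trunk and hindlimb of the embryo, had 0 counts in each SIRMu-1 library, 266, 449 and 357 in rMC-1, and 0, 0, 0 and 3 in Primary MC. Hoxc9, its neighbour and a thoracic gene, had 0 in each SIRMu-1 library, 172, 228 and 155 in rMC-1, and 0, 0, 0 and 1 in Primary MC. The Primary MC reads of both genes came from replicate 4 alone. Ratios of pooled counts in rMC-1 over Primary MC were 285.4 for Hoxc10 (95% counting interval 97.4 to 1386, adjusted p = 9.51e-05) and 443.3 for Hoxc9 (79.2 to 17540, adjusted p = 2.33e-05). Without Primary MC replicate 4 they became lower bounds of 72.9-fold for Hoxc10 and 37.8-fold for Hoxc9. Hoxc10 was at least 82.97-fold lower and Hoxc9 at least 42.96-fold lower in SIRMu-1 than in rMC-1.

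Hoxb3, active in the hindbrain and neck, had 0 counts in each SIRMu-1 library, 75, 134 and 67 in rMC-1, and 0, 0, 2 and 2 in Primary MC. Hoxa2, which patterns the hindbrain and the second pharyngeal arch, had 0, 1, 2, 4 and 7 counts in SIRMu-1, 67, 107 and 64 in rMC-1, and 0, 0, 2 and 5 in Primary MC. Hoxb8 had 0 in each SIRMu-1 library, 39, 62 and 27 in rMC-1, and 0 in each Primary MC library. All 3 were above every other library in each rMC-1 library, and Hoxa2 was the 1 HOX gene with reads in 4 of 5 SIRMu-1 libraries. In rMC-1 against Primary MC the log2 fold change was 5.59 ± 0.81 for Hoxb3 (adjusted p = 0.000434), or 6.15 without Primary MC replicate 3 or replicate 4. For Hoxa2 it was 4.63 ± 0.98 (adjusted p = 0.00121), or 5.95 without Primary MC replicate 4, and Hoxb8 was at least 8.52-fold higher (adjusted p = 0.000998). Hoxa2 in SIRMu-1 against Primary MC was 0.42 ± 1.01 (adjusted p = 0.759), and the sign turned without SIRMu-1 replicate 5 (-0.28). In SIRMu-1 against rMC-1, Hoxa2 fell by 4.21 ± 0.86 (adjusted p = 0.00112), or -4.97 on the log2 scale without SIRMu-1 replicate 5. Hoxb3 was at least 21.4-fold lower in SIRMu-1 than in rMC-1 (adjusted p = 0.000107) and Hoxb8 at least 9.91-fold lower (adjusted p = 0.000771).

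The remaining rMC-1 HOX genes were low. Hoxc5 had 23, 37 and 23 counts in rMC-1 and 0, 0, 0 and 3 in Primary MC, a ratio of 22.1 (7.30 to 109.3, adjusted p = 0.00518; adjusted p = 0.0503 by DESeq2), which became a lower bound of 5.65-fold without Primary MC replicate 4. Hoxc8 had 14, 23 and 11 counts in rMC-1 and 1, 0, 0 and 9 in Primary MC, a log2 fold change of 1.84 ± 1.11 (adjusted p = 0.173), or 4.49 (adjusted p = 0.00421) without Primary MC replicate 4. Both were at 0 in every SIRMu-1 library, at least 6.42-fold lower than in rMC-1 for Hoxc5 (adjusted p = 0.000972) and at least 3.71-fold lower for Hoxc8 (adjusted p = 0.0077). Hoxb13, which lies at the far 5' end of its cluster, had 37, 11 and 8 counts in rMC-1, Hoxb5 had 20, 13 and 6, and Hoxb7 had 4, 12 and 5, all with 0 in the other 9 libraries. Hoxb4 had 17, 10 and 2 in rMC-1 and at most 1 elsewhere. These 4 genes had too few counts to be tested.

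**Figure D2:**
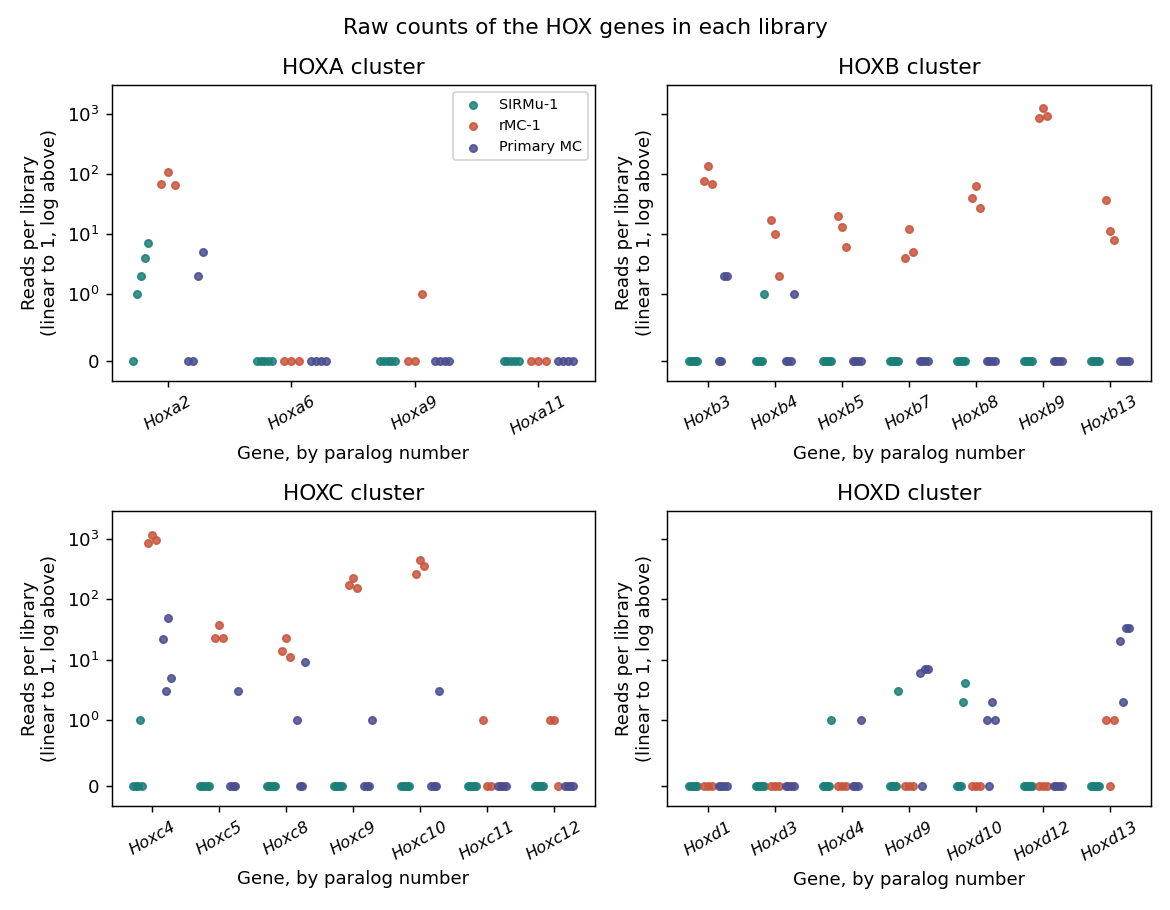
Raw reads per library for the 25 HOX genes by cluster, ordered by paralog number; each point is a library and the axis is linear to 1 and logarithmic above. The rMC-1 points lie above the others across the HOXB genes and from Hoxc4 to Hoxc10, while the HOXD genes hold reads mainly in Primary MC and, below 10 reads, in SIRMu-1.

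In the HOXD cluster nearly all reads lay outside rMC-1. Hoxd13, which patterns digits and the urogenital tail end, had 0 counts in each SIRMu-1 library, 1, 0 and 1 in rMC-1, and 20, 2, 33 and 33 in Primary MC. The lowest Primary MC library had 2 reads and no line had more than 1 in a library. Hoxd13 was at least 8.53-fold lower in SIRMu-1 than in Primary MC (adjusted p = 0.00222), and its pooled ratio in rMC-1 was 55.1-fold lower (14.8 to 462, adjusted p = 0.0046), or 33.1-fold without rMC-1 replicate 2. Hoxd9 had 0, 0, 0, 0 and 3 counts in SIRMu-1, 0 in each rMC-1 library, and 6, 0, 7 and 7 in Primary MC. Hoxd10 had 0, 0, 0, 2 and 4 counts in SIRMu-1, 0 in each rMC-1 library, and 1, 0, 2 and 1 in Primary MC. Of the other HOX genes, Hoxa9, Hoxc11 and Hoxc12 had at most 1 read in a library, in rMC-1 only, and Hoxd4 had 1 read in 1 SIRMu-1 and 1 Primary MC library.

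The PBX genes described here had reads in every library. Pbx2, a broadly expressed family member, was at 88.4, 84.6, 88.3, 97.3 and 109 CPM in SIRMu-1, 53.8, 63.8 and 50.04 CPM in rMC-1, and 50.6, 49.1, 47.7 and 53.6 CPM in Primary MC. Every SIRMu-1 library was above every library of the other groups. Pbx2 rose in SIRMu-1 by 0.89 ± 0.10 against Primary MC (adjusted p = 6.27e-05) and by 0.74 ± 0.11 against rMC-1 (adjusted p = 0.000145). With library totals the second value was 0.30 (adjusted p = 0.0918), and rMC-1 against Primary MC, 0.15 ± 0.12 (adjusted p = 0.251) on the TMM scale, became 0.62 (adjusted p = 0.00295).

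Pbx3, another HOX partner of the family, was at 64.2, 60.2, 44.4, 50.8 and 47.5 CPM in SIRMu-1, 42.4, 48.7 and 44.7 CPM in rMC-1, and 35.7, 64.4, 52.4 and 51.3 CPM in Primary MC. The 3 groups overlapped, and no comparison of Pbx3 passed the threshold (smallest adjusted p = 0.263, SIRMu-1 against rMC-1). Pbx4, a low member known mainly from testis in the mouse, was at 0.711, 0.913, 0.495, 0.494 and 0.824 CPM in SIRMu-1, 0.627, 1.03 and 0.606 CPM in rMC-1, and 0.197, 0.150, 0.224 and 0.749 CPM in Primary MC. Primary MC replicate 4 was the only Primary MC library within the range of the lines. Pbx4 was 1.06 ± 0.49 in SIRMu-1 against Primary MC (adjusted p = 0.0944) and 1.20 ± 0.53 in rMC-1 against Primary MC (adjusted p = 0.061). Without Primary MC replicate 4 both passed the threshold, at 1.84 (adjusted p = 0.00456) and 1.98 (adjusted p = 0.00187), and the second also did with library totals (1.63, adjusted p = 0.0209).

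Among the TBX genes, Tbx1 set SIRMu-1 apart. Tbx1, which is needed for pharyngeal arches, the heart's outflow tract and head muscle, was at 30.2, 31.7, 35.4, 34.7 and 31.9 CPM in SIRMu-1, with 850 to 1055 counts per library. It had 0 counts in each rMC-1 library and 2, 0, 0 and 6 counts in Primary MC. The 5 SIRMu-1 libraries lay within 30.2 and 35.4 CPM at passages 6 to 20, with or without drugs. The filter on low counts was passed only through SIRMu-1, so the p-values of Tbx1 are given as a description. Tbx1 was 8.56 ± 0.59 higher on the log2 scale in SIRMu-1 than in Primary MC (adjusted p = 8.65e-06), or 10.05 without Primary MC replicate 4, and at least 442.3-fold higher than in rMC-1 (adjusted p = 1.94e-06). The call of Tbx1 as lower in rMC-1 than in Primary MC (adjusted p = 0.0216) rests on the 8 Primary MC reads, too few for a fold. It was lost without Primary MC replicate 4 (adjusted p = 0.068) and without rMC-1 replicate 2 (adjusted p = 0.0536), with the 2 groups fitted alone (adjusted p = 0.108) and with libraries of the same file code summed (adjusted p = 0.0727).

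Tbx3, a repressor of the dorsal retina, limb and heart conduction system, was at 6.83, 2.99, 7.51, 7.01 and 12.7 CPM in SIRMu-1, had 1, 0 and 0 counts in rMC-1, and was at 28.2, 42.3, 9.70 and 37.4 CPM in Primary MC. Tbx2, its close relative in the dorsal retina, was at 1.89, 1.89, 3.72, 3.62 and 3.97 CPM in SIRMu-1, had 2, 5 and 1 counts in rMC-1, and was at 10.3, 9.43, 2.91 and 13.04 CPM in Primary MC. The order was Primary MC, SIRMu-1, rMC-1 for both, but Primary MC replicate 3 fell inside the SIRMu-1 range for each. Tbx3 fell by 1.99 ± 0.45 in SIRMu-1 against Primary MC (adjusted p = 0.00369) and Tbx2 fell by 1.56 ± 0.42 (adjusted p = 0.00964). With only the SIRMu-1 cultures that had the drugs, replicates 3 and 5, both calls were lost (Tbx3 -1.54 ± 0.58, adjusted p = 0.0629; Tbx2 -1.21 ± 0.56, adjusted p = 0.117). They were also lost when libraries of 1 group whose deposited files carry the same code were summed to 1 sample, called summed codes here (Tbx3 -1.85 ± 0.63, adjusted p = 0.0726; Tbx2 -1.47 ± 0.69, adjusted p = 0.154). Both runs had fewer samples and wider errors, so these lost calls cannot be read as an effect of the drugs or of the codes.

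The rMC-1 cultures held close to none of either gene. In rMC-1 against Primary MC, the pooled ratio was 3645-fold lower for Tbx3 (654 to 144000, adjusted p = 1.71e-06), at least 432.1-fold lower without rMC-1 replicate 1 and 2190-fold lower without replicate 2. The log2 fold change of Tbx2 was -7.03 ± 0.69 (adjusted p = 4.07e-06), or -7.55 without rMC-1 replicate 2. In SIRMu-1 against rMC-1, Tbx2 rose by 5.46 ± 0.66 (adjusted p = 2.53e-05), or 5.97 without rMC-1 replicate 2. Tbx3 was 880.3-fold higher by pooled ratio (157.6 to 34800, adjusted p = 9.64e-06), at least 104.4-fold without rMC-1 replicate 1 and 529-fold without replicate 2. Tbx5, the third dorsal retinal T-box gene and the forelimb gene, had 0, 0, 0, 0 and 1 counts in SIRMu-1, 0 in each rMC-1 library, and 5, 0, 1 and 23 in Primary MC, too few to be tested.

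Tbx15, expressed in craniofacial, limb and dermal mesenchyme, was at 6.51, 6.67, 7.06, 6.88 and 6.03 CPM in SIRMu-1, had 2, 1 and 0 counts in rMC-1, and was at 7.89, 2.88, 11.3 and 6.17 CPM in Primary MC. SIRMu-1 lay inside the wider Primary MC range, and SIRMu-1 against Primary MC gave -0.09 ± 0.36 (adjusted p = 0.861). The pooled ratio was 279.2-fold lower in rMC-1 than in Primary MC (95.1 to 1357, adjusted p = 1.3e-06) and 268.7-fold higher in SIRMu-1 than in rMC-1 (91.7 to 1305, adjusted p = 2e-06). Without rMC-1 replicate 1 these were 595.8-fold and 573.5-fold. Summed fibroblast markers were also low in rMC-1, as given above, and their part in the low Tbx2, Tbx3 and Tbx15 of rMC-1 was not tested.

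Tbx18, a gene of the epicardium, ureter and mural cell lineages, was at 46.3, 54.5, 62.1, 55.0 and 71.1 CPM in SIRMu-1, 148, 109 and 113 CPM in rMC-1, and 58.6, 91.5, 26.7 and 10.6 CPM in Primary MC. It was the 1 called TBX gene with a mean over 1 CPM that was highest in rMC-1, whose libraries all stood above both other groups. Tbx18 rose in rMC-1 against Primary MC by 1.39 ± 0.51 (adjusted p = 0.0272), which missed the threshold once Primary MC replicate 3 (1.20, adjusted p = 0.0651) or rMC-1 replicate 1 (1.29, adjusted p = 0.0716) was left out, with the 2 groups fitted alone (adjusted p = 0.0691) and with summed codes (adjusted p = 0.0694). SIRMu-1 against rMC-1 gave -1.09 ± 0.48 (adjusted p = 0.0633), which passed the threshold without Primary MC replicate 2 (adjusted p = 0.0307) or replicate 4 (adjusted p = 0.00821), with library totals (-1.53, adjusted p = 0.012), with DESeq2 (adjusted p = 0.0333) and with the 2 groups fitted alone (adjusted p = 0.000282). Summed pericyte and smooth muscle markers were 5134 to 11450 CPM in SIRMu-1, 972.5 to 2980 in rMC-1 and 6009 to 10560 in Primary MC. Acta2 made up most of these sums, with means of 7613 CPM in SIRMu-1, 1676 CPM in rMC-1 and 5861 CPM in Primary MC. Of 6 of these markers tested, 0 rose and 5 fell in rMC-1 against Primary MC, where 31.9% of all genes rose and 38.9% fell. Their relation to Tbx18 was not tested.

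**Figure D3:**
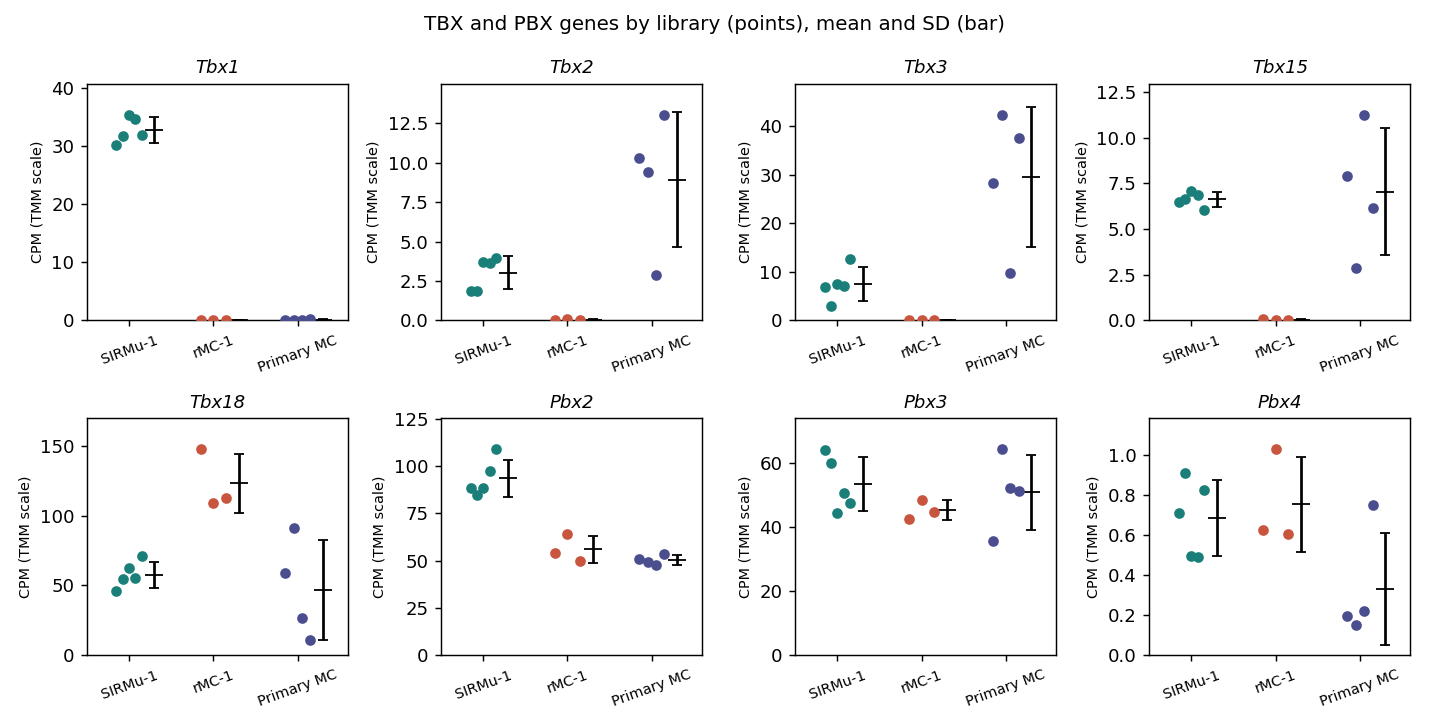
Levels (CPM on the TMM scale) of 5 TBX and 3 PBX genes; points are libraries, bars the mean and SD of SIRMu-1 (n = 5), rMC-1 (n = 3) and Primary MC (n = 4), and each panel has its own axis from 0. Tbx1 stands at 30.2 to 35.4 CPM in SIRMu-1 alone, Tbx2, Tbx3 and Tbx15 are near 0 in rMC-1, Tbx18 is highest in rMC-1, Pbx2 is highest in SIRMu-1, and the groups overlap for Pbx3.

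Tbx19, a pituitary lineage gene, had 13, 38, 20, 49 and 19 counts in SIRMu-1, 32, 73 and 22 in rMC-1, and 9, 2, 11 and 5 in Primary MC. Each library of the lines had more counts than each Primary MC library, although on the CPM scale SIRMu-1 replicate 1 (0.462 CPM) lay below Primary MC replicate 3 (0.492 CPM). Tbx19 rose by 1.75 ± 0.55 in SIRMu-1 (adjusted p = 0.0215) and by 1.81 ± 0.59 in rMC-1 (adjusted p = 0.0168), both against Primary MC. The first call was lost without Primary MC replicate 4 (adjusted p = 0.0524) or SIRMu-1 replicate 4 (adjusted p = 0.0535), with summed codes (adjusted p = 0.0728) and with drug-matched cultures (adjusted p = 0.129), and the second without rMC-1 replicate 2 (adjusted p = 0.0673). Tbx6, a gene of the presomitic mesoderm, had 9, 7, 9, 10 and 34 counts in SIRMu-1, 20, 46 and 9 in rMC-1, and 5, 4, 14 and 15 in Primary MC, with no comparison past the threshold. Tbx4, the hindlimb T-box gene, had 16 counts over the SIRMu-1 libraries, 3 over rMC-1 and 8 over Primary MC. Tbx21, the T-bet gene of T cells, had 0, 15 and 4 counts in the same order of groups, and Tbx22, a palate gene, had 0, 3 and 4.

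Between the 2 SIRMu-1 cultures with gentamicin and amphotericin B and the 3 without, edgeR called no HOX, PBX or TBX gene. Adjusted p was 0.977 or more, and 0 of 21 had an unadjusted p under 0.05. Most of the HOX genes tested were at 0 in every SIRMu-1 library and could give no difference. The cultures with the drugs include the only SIRMu-1 library at passage 20, and with 2 against 3 libraries a difference may be missed. Over all genes edgeR called 0 (0%) and DESeq2 called 4, and 433 genes (3.82%) had an unadjusted p under 0.05. Tbx3 averaged 10.1 CPM with and 5.61 CPM without the drugs, a log2 difference of 0.85 ± 0.57, and Tbx2 averaged 3.84 CPM with and 2.46 CPM without, a difference of 0.64 ± 0.56. Tbx6 averaged 0.823 CPM with and 0.290 CPM without (1.50 ± 0.79). Tbx1 averaged 33.7 CPM with and 32.2 CPM without (0.06 ± 0.51).

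Other genes that work with these factors were read from lists. Their counts of calls stand beside 46.1% of all genes called in SIRMu-1 against Primary MC, 70.8% in rMC-1 against Primary MC and 63.2% in SIRMu-1 against rMC-1, and a count near that share is no result about a list. Of 8 homeodomain cofactors and modulators beside PBX (the MEIS, PKNOX and TGIF genes and Pbxip1), 3 rose and 3 fell in SIRMu-1 against Primary MC, 3 rose and 3 fell in rMC-1 against Primary MC, and 2 rose and 1 fell in SIRMu-1 against rMC-1. Their median log2 fold changes were 0.05, -0.10 and 0.11, beside -0.02, -0.15 and 0.03 over all genes. Meis2, which binds DNA with PBX and HOX proteins and acts in eye formation, was at 67.1, 44.8, 44.5, 54.2 and 48.0 CPM in SIRMu-1, 69.1, 90.7 and 72.9 CPM in rMC-1, and 2.80, 1.46, 9.35 and 3.97 CPM in Primary MC. Both lines stood above all Primary MC libraries, by 3.56 ± 0.44 in SIRMu-1 (adjusted p = 9.26e-05) and by 4.15 ± 0.47 in rMC-1 (adjusted p = 1.12e-05), or 4.24 and 4.83 without Primary MC replicate 3. Pknox2, a MEIS relative, had 0 counts in both lines and was at 0.947, 1.01, 11.1 and 6.92 CPM in Primary MC. It was at least 44.3-fold lower in SIRMu-1 (adjusted p = 0.00366) and at least 63.6-fold lower in rMC-1 (adjusted p = 0.00396), or 26.2-fold and 37.6-fold without Primary MC replicate 3.

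Of 10 ParaHox and HOX-like genes, 8 were in the tables and 2 could be tested. Cdx2, a caudal homeobox gene that activates HOX genes of the trunk, had 0, 0, 1, 0 and 2 counts in SIRMu-1, was at 96.5, 89.5 and 97.8 CPM in rMC-1, and had 1, 1, 0 and 0 counts in Primary MC. The rMC-1 libraries held 11446 Cdx2 counts, against 2 in Primary MC, a ratio of 4571 (1265 to 37750, adjusted p = 1.66e-08). Cdx2 was 4430-fold lower in SIRMu-1 than in rMC-1 (1515 to 21480, adjusted p = 1.16e-08), or 10780-fold without SIRMu-1 replicate 5. Gbx2, a gene of the anterior hindbrain, averaged 1.34 ± 0.49 CPM in SIRMu-1 (SD, n = 5), 1.11 ± 0.42 CPM in rMC-1 (n = 3) and 0.248 ± 0.19 CPM in Primary MC (n = 4). It rose in SIRMu-1 by 2.44 ± 0.57 (SE, adjusted p = 0.00474) and in rMC-1 by 2.16 ± 0.61 (adjusted p = 0.00729), both against Primary MC. The list's median log2 fold changes were 1.24, 7.03 and -5.79 over these 2 genes. Of 5 T-box genes listed under other symbols, 2 were in the tables: T was at 0 in every library, and Tbr1, a gene of forebrain neurons and the 1 tested, passed in no comparison.

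Of 19 tested regulators of HOX chromatin and retinoid response, 9 rose and 4 fell in SIRMu-1 against Primary MC (median 0.24), 12 rose and 3 fell in rMC-1 against Primary MC (median 0.49), and 3 rose and 10 fell in SIRMu-1 against rMC-1 (median -0.56). Over all genes 46.1%, 70.8% and 63.2% were called in the same order, so the calls in rMC-1 against Primary MC were near the share of all genes. Ezh2, the methyltransferase of the Polycomb complex that silences HOX clusters, was at 80.8, 29.3, 64.1, 77.2 and 81.4 CPM in SIRMu-1, 266, 285 and 271 CPM in rMC-1, and 14.99, 10.4, 8.18 and 9.26 CPM in Primary MC. The 3 groups did not overlap: Ezh2 rose by 2.63 ± 0.29 in SIRMu-1 (adjusted p = 5.01e-05) and by 4.68 ± 0.34 in rMC-1 (adjusted p = 4.26e-07), both against Primary MC, and fell by 2.04 ± 0.28 in SIRMu-1 against rMC-1 (adjusted p = 7.34e-05). Rarb, the retinoic acid receptor beta gene, had 26 counts over the SIRMu-1 libraries, 3 over rMC-1 and 1165 over Primary MC. It was 65.1-fold lower in SIRMu-1 than in Primary MC (44.2 to 100.1, adjusted p = 2.13e-05) and 486.2-fold lower in rMC-1 (166 to 2361, adjusted p = 4.44e-06), or 876.5-fold without rMC-1 replicate 2.

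Of 11 tested retinal position genes, 3 rose and 2 fell in SIRMu-1 against Primary MC (median 0.12), 1 rose and 5 fell in rMC-1 against Primary MC (median -0.99), and 7 rose and 2 fell in SIRMu-1 against rMC-1 (median 1.51). The first count was at the 46.1% of all genes called and the second below the 70.8%, while 63.2% of all genes were called between the lines. Aldh1a1, the retinoic acid enzyme of the dorsal retina, had 2 counts over the SIRMu-1 libraries, 19 over rMC-1 and 2940 over Primary MC, where it was at 40.1, 13.2, 2.77 and 66.4 CPM. It was 2137-fold lower in SIRMu-1 than in Primary MC (591 to 17650, adjusted p = 2.92e-05), or 1359-fold without Primary MC replicate 4, 3423-fold without SIRMu-1 replicate 1 and 3312-fold without replicate 2. Its ratio in rMC-1 was 193.7-fold lower than in Primary MC (123.8 to 322.3, adjusted p = 6.43e-05), or 123.2-fold without Primary MC replicate 4. Gdf6, a dorsal growth factor, was at 8.25, 10.6, 13.9, 20.6 and 14.6 CPM in SIRMu-1, had 2 counts over rMC-1, and was at 0.355, 0.150, 7.60 and 5.51 CPM in Primary MC. Gdf6 was 828.2-fold higher in SIRMu-1 than in rMC-1 (228.9 to 6843, adjusted p = 0.000325), at least 165.9-fold without rMC-1 replicate 2. Each SIRMu-1 library was above each Primary MC library, but the test gave 2.00 ± 0.86 (adjusted p = 0.0764), or 2.77 (adjusted p = 0.0324) without Primary MC replicate 3.

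Of 6 tested forebrain and eye genes, 1 rose and 3 fell in SIRMu-1 against Primary MC (median -1.91), 4 rose and 0 fell in rMC-1 against Primary MC (median 2.65), and 0 rose and 5 fell in SIRMu-1 against rMC-1 (median -2.86). Over all genes 46.1%, 70.8% and 63.2% were called, so the count in rMC-1 against Primary MC was near the share of all genes. Pax6, a gene required to form the eye, was at 1.42, 1.60, 1.98, 2.83 and 5.51 CPM in SIRMu-1, 67.4, 82.6 and 74.4 CPM in rMC-1, and 12.7, 3.82, 1.39 and 24.5 CPM in Primary MC. Pax6 rose in rMC-1 against Primary MC by 2.82 ± 0.74 (adjusted p = 0.00484), or 3.64 without Primary MC replicate 4. Its call in SIRMu-1 against Primary MC (-1.99 ± 0.66, adjusted p = 0.0283) was lost without Primary MC replicate 1 or 4 or any of SIRMu-1 replicates 1 to 4, at adjusted p of up to 0.14, and with the 2 groups alone (adjusted p = 0.0562), summed codes (adjusted p = 0.207) or drug-matched cultures (adjusted p = 0.221). Six3, a forebrain and lens gene, averaged 0.510 ± 0.54 CPM in SIRMu-1, 12.9 ± 1.9 CPM in rMC-1 and 2.11 ± 2.3 CPM in Primary MC (SD), and rose by 2.61 ± 0.88 (SE, adjusted p = 0.0187) in rMC-1 against Primary MC, or 3.65 without Primary MC replicate 4. This call of Six3 was lost with summed codes (2.53, adjusted p = 0.0714). In SIRMu-1 against rMC-1, Pax6 fell by 4.81 ± 0.74 (adjusted p = 0.000151) and Six3 by 4.66 ± 0.88 (adjusted p = 0.000692), or -5.63 on the log2 scale without SIRMu-1 replicate 5. Hoxb9, Hoxc4, Hoxc9, Hoxc10, Pax6 and Six3 were each highest in the same 3 rMC-1 libraries.

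Of 15 tested genes of cranial and ocular mesenchyme, 3 rose and 7 fell in SIRMu-1 against Primary MC (median -0.89), 0 rose and 12 fell in rMC-1 against Primary MC (median -9.28), and 9 rose and 1 fell in SIRMu-1 against rMC-1 (median 4.36). Over all genes 21.7% rose and 24.4% fell in the first comparison, 31.9% rose and 38.9% fell in the second, and 32.7% rose and 30.5% fell in the third. Alx4, a homeobox gene of facial mesenchyme, was at 12.6, 13.1, 12.3, 9.84 and 6.59 CPM in SIRMu-1, had 0 counts in rMC-1, and was at 32.7, 35.7, 20.5 and 12.8 CPM in Primary MC. Alx1, needed for the eye region of the face, was at 55.6, 47.7, 48.1, 42.9 and 44.4 CPM in SIRMu-1, had 0 counts in rMC-1, and was at 4.97, 0.0749, 49.9 and 2.82 CPM in Primary MC. Alx4 fell by 1.22 ± 0.31 in SIRMu-1 against Primary MC (adjusted p = 0.0101; -1.11, adjusted p = 0.138 with summed codes) and was at least 352.4-fold lower in rMC-1 than in Primary MC (adjusted p = 7.01e-07). Alx1 was at least 644.4-fold higher in SIRMu-1 than in rMC-1 (adjusted p = 0.00153), while SIRMu-1 against Primary MC gave 1.73 ± 1.07 (adjusted p = 0.217), or 4.19 (adjusted p = 0.00298) without Primary MC replicate 3.

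Of 7 tested trunk, limb and heart mesenchyme genes, 3 rose and 3 fell in SIRMu-1 against Primary MC (median 1.20), 4 rose and 1 fell in rMC-1 against Primary MC (median 2.44), and 1 rose and 3 fell in SIRMu-1 against rMC-1 (median -0.63). Over all genes 46.1%, 70.8% and 63.2% were called, and the count in rMC-1 against Primary MC was at that share. Gata4, a heart and gut regulator, had 0 counts in each SIRMu-1 library, was at 15.01, 15.8 and 13.98 CPM in rMC-1, and had 5 counts over Primary MC. It was at least 141.2-fold lower in SIRMu-1 than in rMC-1 (adjusted p = 4.54e-06), and 291.4-fold higher in rMC-1 than in Primary MC (124.6 to 898.4, adjusted p = 8.93e-06), or 558.2-fold without Primary MC replicate 4. Pitx1, the hindlimb homeobox gene, had 0 counts in both lines and was at 12.03, 2.32, 0.179 and 21.9 CPM in Primary MC. It was at least 84.1-fold lower in SIRMu-1 (adjusted p = 0.00827) and at least 120.8-fold lower in rMC-1 (adjusted p = 0.00994), or 46.9-fold and 67.3-fold without Primary MC replicate 4. The call in SIRMu-1 was lost with drug-matched SIRMu-1 cultures (adjusted p = 0.0505) and with summed codes (adjusted p = 0.0656).

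Of 5 genes known from human or mouse cells as repression targets of TBX2 or TBX3, 0 rose and 3 fell in SIRMu-1 against Primary MC (median -1.32), 0 rose and 2 fell in rMC-1 against Primary MC (median -0.41), and 1 rose and 2 fell in SIRMu-1 against rMC-1 (median 0.07). Over all genes 46.1%, 70.8% and 63.2% were called, so the count in rMC-1 against Primary MC was below the share of all genes. Cdkn1a, the cell cycle inhibitor p21, averaged 419 ± 166 CPM in SIRMu-1, 33.6 ± 4.03 CPM in rMC-1 and 1177 ± 527 CPM in Primary MC (SD), and fell by 1.49 ± 0.32 (SE, adjusted p = 0.00269) in SIRMu-1 and by 5.13 ± 0.45 (adjusted p = 1.7e-06) in rMC-1, both against Primary MC. Cdkn1a and Tbx3 stood in the same order by group mean. Ndrg1, a stress-induced gene, was at 2.67, 1.32, 3.47, 2.44 and 12.1 CPM in SIRMu-1, 140.3, 199.7 and 166 CPM in rMC-1, and 66.1, 94.3, 6.04 and 33.01 CPM in Primary MC. It fell by 3.51 ± 0.75 in SIRMu-1 against Primary MC (adjusted p = 0.00273), or -4.37 on the log2 scale without SIRMu-1 replicate 5, a call lost with summed codes (adjusted p = 0.0792). In rMC-1 against Primary MC, Ndrg1 gave 1.76 ± 0.78 (adjusted p = 0.0624), which passed without Primary MC replicate 2 (2.27, adjusted p = 0.0344), without SIRMu-1 replicate 5 (adjusted p = 0.0255) and with library totals (2.22, adjusted p = 0.0271).

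**Figure D4:**
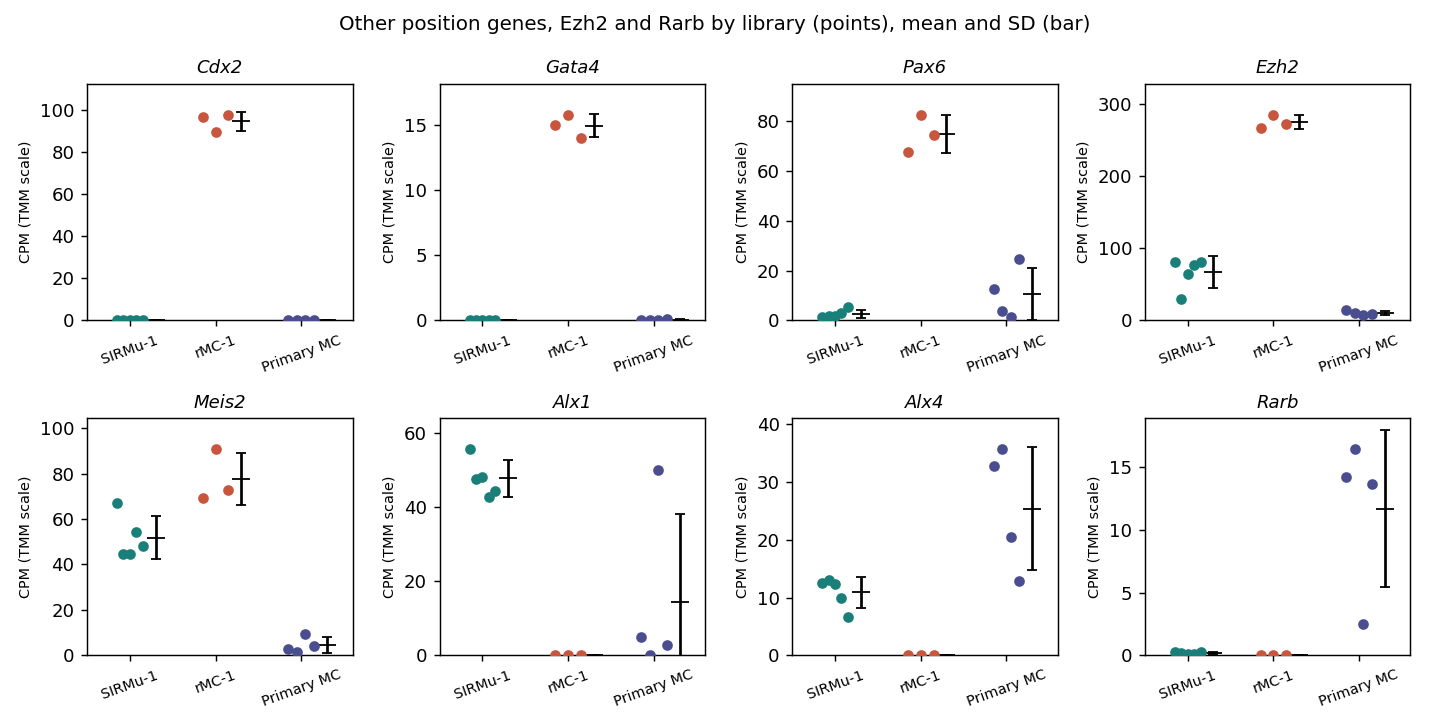
Levels (CPM on the TMM scale) of 8 genes from the lists; points are libraries, bars the mean and SD of SIRMu-1 (n = 5), rMC-1 (n = 3) and Primary MC (n = 4), and each panel has its own axis from 0. Cdx2 and Gata4 hold reads almost only in rMC-1, Ezh2 separates all 3 groups, Meis2 is high in both lines, Alx1 and Alx4 are at 0 in rMC-1, and Rarb is high in Primary MC.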

How the data were processed

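RNA was sequenced in 12 libraries: per the labels' protocols, poly(A) RNA with a stranded kit. The deposited values are raw read counts per gene in each library, made by the authors; cutadapt 1.8.1, STAR 2.5.3a, edgeR 3.18.1 and build rn6 are named in the submitters' processing notes, while their roles, the gene annotation and the strand setting are stated in none of the sources used here. Reads assigned to no feature made up 24.2% to 30.27% of each library, multimapping reads 9.466% to 12.3% and ambiguous reads 0.1515% to 0.1935%; these stayed out of library sizes and tests. Multimapping reads are not in the gene counts, so genes with near-identical copies may be undercounted.

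Groups came from the labels. Counts were fitted with edgeR 4.0.16 in R 4.3.3 (TMM, filterByExpr over the 3 groups, quasi-likelihood test, 9 residual degrees of freedom), with Benjamini-Hochberg adjustment over 11321 genes; a call is an adjusted p under 0.05. SE is the log2 fold change divided by the square root of F. Where a group was at 0, a bound was set from 3 counts per library. Where the lower group had counts, a ratio of pooled counts is given with an exact 95% interval, except with a library left out. Bounds and intervals cover counting error only, since reads without molecular identifiers are not independent molecules. The fit was tested on simulated counts.

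The genes and lists were chosen with earlier results of these data known. Every gene with 10 or more counts in a library is named; values in every library are given for genes called in at least 1 comparison with a group mean of at least 1 CPM and for the PBX genes shown; list genes are the first 2 per list by absolute log2 fold change among those called with a group mean of at least 1 CPM. The results of 1 gene are not reported here. Some genes were also described by counts outside this rule. Alternatives were library totals, edgeR's RLE factors, no filter, a filter at 1 CPM, DESeq2 1.42.0, each library left out, groups fitted alone, drug-matched cultures, a replicate block and libraries that share a file-name code summed. The authors' log2 table was not used. Promoters and gene positions are from RefSeq, assembly GRCr8; all 41 symbols matched.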

Additional observations from a re-analysis of the deposited data

Results flagged for a closer look

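Among 22 groups of gene levels examined for a library far from the others, 2 stood out by Dixon's test at the 95% level, and chance gives about 1 in 20. Tbx6 was at 1.274 CPM in SIRMu-1 replicate 5 and at 0.2203 to 0.3715 CPM in the other SIRMu-1 libraries. This library has the highest passage of the line, 20, and was grown with both drugs; their part was not tested. Pbx4 was at 0.7492 CPM in Primary MC replicate 4 and at 0.1497 to 0.2236 CPM in the other Primary MC libraries, and leaving this library out brought both comparisons of Pbx4 with Primary MC past the threshold.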

How the results depend on the processing

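Beside the values reported, 1984 gene results kept direction and side of the threshold, 34 passed it newly, 45 lost it and 22 changed sign; the cause was not tested. In SIRMu-1 against Primary MC, summing libraries of 1 file-name code, a code that no source used here explains, left 3072 genes and 4 of the HOX, PBX and TBX genes called, and drug-matched SIRMu-1 cultures also left 4 called. Libraries with the same number in different groups share only a number (their deviations from the group means correlated at -0.063 to 0.098). With the replicate block 6, 16 and 15 of these genes were called in the 3 comparisons, and 4973, 8019 and 7157 of all genes; the block ended the calls of Tbx19 in SIRMu-1 (adjusted p = 0.0703) and Tbx1 in rMC-1 (adjusted p = 0.0836), both against Primary MC, and Hoxc8 passed in rMC-1 against Primary MC (adjusted p = 0.0152). Between SIRMu-1 cultures with and without the drugs, DESeq2 called 4 genes, and leaving out a library gave 0 to 2. In SIRMu-1 against Primary MC, leaving out a library gave log2 fold changes of -0.068 to 0.202 for Pbx3, -0.275 to 1.73 for Hoxa2, -0.348 to 0.232 for Tbx15, -0.029 to 0.852 for Tbx18 and -0.4 to 0.641 for Tbx6. There the block gave -0.172 for Hoxa2, 0.078 for Tbx15 and -0.301 for Tbx6, and drug-matched cultures gave -0.148 for Pbx3. Library totals gave 0.307 for Pbx3 in rMC-1 against Primary MC, and -0.213 for Pbx3 and -0.175 for Gbx2 in SIRMu-1 against rMC-1. In the last comparison, leaving out a library gave -0.043 to 0.518 for Gbx2, -0.357 to 0.068 for Pbx4, -0.413 to 0.279 for Tbx19 and -1.005 to 0.225 for Tbx6. Summed codes gave 0.048 for Tbx19 there, and drug-matched cultures gave 0.124 for Tbx19 and -0.012 for Gbx2. None of these reversed values had been called. Genes with under 10 counts per library cannot be compared at this depth.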
